A study of Mus musculus with 2 samples.

Results

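The genes described here are 10 components of the Notch pathway: the receptors Notch1, Notch2 and Notch3, the ligands Jag1 and Dll1, the DNA-binding factor Rbpj, and the Hes and Hey family genes Hes1, Hey1, Heyl and Hes6. They were taken by symbol from the 20830 genes of the 10% library and the 26997 genes of the 90% library, and all 10 were found in both. The libraries are 2 parts of 1 Chromium 10x v2 capture of mouse muscle stem cells (MuSCs), described as holding 10% and 90% of it. Both hold the same mixture. All mice were Pax7creERT2 with an R26-eYFP fl/fl reporter on a C57BL6 background, were given 100 uL of tamoxifen (20 mg/ml in corn oil) daily for 5 days from 3 months of age, and were dissected 2 weeks later, so that YFP marks cells in which the Pax7 gene had driven the recombinase. Quiescent cells were isolated from uninjured hindlimb muscle, and activated cells 72 hours after 40 uL of 1.2% barium chloride had been injected into the lower hindlimb. Cells of both origins were sorted on YFP and captured together, the tables carry no label of origin, and there are no replicates. The number of mice is not given in the sources used here.

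Notch receptors are cleaved after a ligand on a neighbouring cell binds them, and the freed intracellular domain then joins RBPJ on DNA and turns on Hes and Hey genes, which encode basic helix-loop-helix repressors. In adult muscle, Notch signalling is known for keeping satellite cells quiescent, and loss of Rbpj leads satellite cells to activate and differentiate. Hes6 is the exception in the family. It encodes a protein that opposes HES1 and is known for its expression in differentiating myoblasts. Dll1 and Jag1 encode ligands, which are known to be carried by myogenic cells and muscle fibres as well as by other cells of the tissue.

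Barcodes were compared in 2 depth classes, since their origin is not labelled. The low-depth class holds barcodes of 3000 to 15000 UMIs (unique molecular identifiers, each standing for 1 captured transcript molecule) with 0 UMIs of the cell cycle genes Rrm2, Top2a and Cdk1. It has 157 barcodes in the 10% library and 1243 in the 90% library. The deep class holds barcodes of at least 20000 UMIs and has 79 and 606 barcodes. Of these, 88.6% and 94.2% held a UMI of at least 1 of the 3 cell cycle genes. Median depth was 6729 and 4680 UMIs in the low-depth class against 65499 and 47106 in the deep class. Levels are given as CPM, the UMIs of the gene relative to all UMIs of the class and scaled to the same total in each class. All intervals are 95% intervals and cover counting error alone, so they say nothing about the spread between animals, and no test was made.

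The libraries did not hold separate cells. All 269 barcodes with at least 3000 UMIs in the 10% library were also listed in the 90% library, and 263 of them had at least 3000 UMIs there too. Across the 20506 genes of both tables, the correlation of log2(UMIs + 1) between libraries had a median of 0.93 for the same barcode and 0.66 for different barcodes, and 263 of the 269 barcodes matched best with themselves. The class memberships overlapped accordingly, with 144 low-depth and 76 deep barcodes in the same class in both libraries. Agreement between the libraries is therefore in part agreement of 1 set of cells with itself. Values of the 90% library are given below also without the barcodes listed in the 10% library, which leaves 1000 low-depth and 399 deep barcodes.

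The class labels were read against marker genes. All 9 genes of a stem cell identity list (among them Pax7, Myf5, Vcam1, Chodl and Msc) had UMIs in both classes. Of low-depth barcodes, 147 of 157 and 1171 of 1243 held at least 3 UMIs of the list. Of deep barcodes, 76 of 79 and 603 of 606 did. The named genes and Sdc4 were higher in the low-depth class in both libraries. Cdh15, Itga7 and Des were higher in the deep class in both. Their deep levels were 57.3 and 57.1, 58.4 and 64.7, and 323 and 408 CPM. Their low-depth levels were 28.7 and 37.5, 34.1 and 38.3, and 253 and 305 CPM. A quiescence list of Calcr, Spry1, Chrdl2, Cd34 and Pax7 summed to 353 and 412 CPM in the low-depth class and to 23.9 and 27.4 CPM in the deep class. A list of activation genes was also higher in the low-depth class, at 1127 and 1079 CPM against 441 and 478 CPM. Nearly all of it was Myod1, at 1106 and 1069 CPM against 185 and 213 CPM. The other 5 genes of this list, all of the cell cycle, were higher in the deep class. Low-depth barcodes had been chosen to have no UMIs of the cell cycle genes Rrm2, Top2a and Cdk1. The direction of these 5 genes was thus in part set by that choice, and it is no independent reading of the classes. Myod1 had a UMI in 52.9% and 48.6% of low-depth barcodes. Immediate-early genes were higher in the low-depth class. Their 9 genes, all detected, summed to 2377 and 3269 CPM in the low-depth class and to 410 and 396 CPM in the deep class, and single low-depth barcodes reached 9211 and 96657 CPM. The part of this list in the differences below was not tested. A list for fibre genes summed to 58.3 and 80.7 CPM against 29.4 and 48.1 CPM. A list of differentiation genes summed to 30.5 and 82.3 CPM against 62.0 and 133 CPM, and single low-depth barcodes reached 1038 and 7885 CPM. Its Myog had a UMI in 1.27% and 1.53% of low-depth barcodes, with 237 UMIs in those of the 90% library. Its Myl4 was higher in the low-depth class, at 14.4 and 10.4 CPM against 5.29 and 8.94 CPM.

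Sequence is shown first for Notch3, which was higher in the low-depth class, and Hes6, which was higher in the deep class, because long-read isoforms began beside these promoters. By the paper's methods, isoform starts and ends were corrected against reference transcripts, so such starts can in part be set by the annotation. RefSeq promoters (GRCm38.p6) were matched for 7 of the 10 genes, and those of Hes1, Hey1 and Heyl were not matched. The 250 bases before the start are printed on the minus strand of each gene, 5′ to 3′, with CAGCTG (an E-box of the form bound by MyoD and myogenin) and TATAAA in capitals. Both strands were searched for these and for GTGGGAA, a core RBPJ site.
Notch3, chr17:32166891-32167140: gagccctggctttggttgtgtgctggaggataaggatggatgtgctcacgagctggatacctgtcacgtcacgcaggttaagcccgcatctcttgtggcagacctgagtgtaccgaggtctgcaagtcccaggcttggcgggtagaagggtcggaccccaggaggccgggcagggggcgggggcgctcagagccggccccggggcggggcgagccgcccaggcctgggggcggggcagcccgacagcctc
Hes6, chr1:91413223-91413472: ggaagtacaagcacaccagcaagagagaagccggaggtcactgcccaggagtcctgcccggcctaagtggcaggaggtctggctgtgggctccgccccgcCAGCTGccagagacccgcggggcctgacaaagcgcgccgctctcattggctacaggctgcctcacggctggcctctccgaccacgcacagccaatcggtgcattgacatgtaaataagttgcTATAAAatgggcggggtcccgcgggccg
The Hes6 window held 1 CAGCTG and 1 TATAAA, and the Notch3 window held neither. Over all 32851 promoters of the same length, 13% held CAGCTG, 12.4% held TATAAA and 5.42% held GTGGGAA. None of the 10 windows of the 7 genes held the core RBPJ letters. The E-box letters also stood once in the window of Jag1, in the other Hes6 window and in 1 of 2 Dll1 windows. A match to these letters is a description of the sequence and not evidence that a factor binds there.

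**Figure D1:**
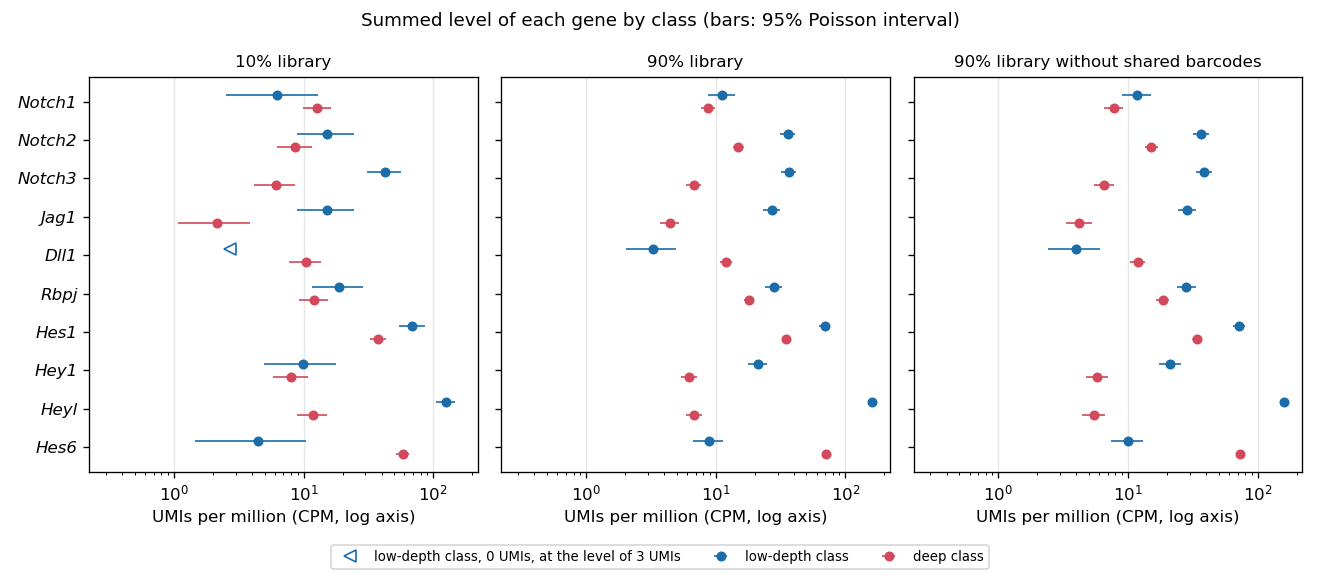
Level of each gene in CPM on a log axis in the low-depth (blue) and deep (red) class of the 10% library, the 90% library and the 90% library without shared barcodes, with 95% Poisson intervals. Notch3, Jag1 and Heyl lie to the right in the low-depth class and Hes6 and Dll1 to the right in the deep class in each panel, and the open triangle marks Dll1, which had 0 UMIs in the low-depth class of the 10% library.

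Among the receptors, Notch3 differed most between the classes. In the 10% library it had 47 UMIs in the low-depth class, a level of 42.2 CPM (31.0 to 56.1), and 31 UMIs in the deep class, a level of 6.08 CPM (4.13 to 8.63). Levels in the 90% library were 36.6 CPM (32.1 to 41.6) and 6.76 CPM (5.86 to 7.76). The level was thus higher in the low-depth class by 6.94-fold (4.32 to 11.3) and 5.41-fold (4.46 to 6.56), and by 5.92-fold (4.69 to 7.49) without the shared barcodes. The class intervals did not overlap in either library. After thinning the fold was 2.77 in the 10% library, from few UMIs, and 7.53 in the 90% library. Against deep barcodes without cell cycle UMIs it was 3.95 and 3.06, from 3 and 15 deep UMIs.

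Notch2 differed less. Its low-depth level was 15.3 CPM (8.89 to 24.4) in the 10% library and 35.8 CPM (31.3 to 40.7) in the 90% library. Its deep level was 8.63 CPM (6.27 to 11.6) and 14.9 CPM (13.6 to 16.4). The ratio of 1.77 (0.95 to 3.16) in the 10% library was within counting error of no difference, whereas the 90% library gave 2.40 (2.04 to 2.82), and 2.41 (1.99 to 2.92) without the shared barcodes. Notch1 had no common direction. It stood at 6.28 CPM (2.53 to 12.9) against 12.7 CPM (9.84 to 16.2) in the 10% library, from 7 and 65 UMIs. The 90% library had it at 11.2 CPM (8.73 to 14.1) against 8.77 CPM (7.74 to 9.90). The ratio of low-depth to deep was 0.49 (0.19 to 1.07) and 1.27 (0.97 to 1.66), and neither interval excluded 1.

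The ligands Jag1 and Dll1 differed in opposite directions. Jag1 had 17 low-depth and 11 deep UMIs in the 10% library, 15.3 CPM (8.89 to 24.4) against 2.16 CPM (1.08 to 3.86). The 90% library gave levels of 27.0 CPM (23.1 to 31.3) and 4.42 CPM (3.70 to 5.24). Its low-depth level was 7.07-fold (3.12 to 16.7) and 6.10-fold (4.84 to 7.71) the deep level, and 6.78-fold (5.11 to 9.05) without the shared barcodes. After thinning it was 1.51-fold in the 10% library, where the low-depth class kept 9 UMIs and the deep class kept 0 and was set to 3. In the 90% library it was 8.08-fold after thinning. Dll1 was the reverse. No Dll1 UMI was found among the 1114508 UMIs of the low-depth class in the 10% library. Its level there would be 2.69 CPM at 3 counts, and its 95% upper limit was 3.31 CPM. The deep class held 53 UMIs, a level of 10.4 CPM (7.79 to 13.6). With 3 counts in place of 0, Dll1 was 3.86-fold lower in the low-depth class there, and the 95% lower limit of this fold, from the 0 count, was 3.03. It stood in the 90% library at 3.25 CPM (2.01 to 4.98) in the low-depth class and at 12 CPM (10.8 to 13.3) in the deep class, which was 3.69-fold (2.38 to 6.04) higher. The fold was 3.00 (1.89 to 5.0) without the shared barcodes. Of the 21 low-depth UMIs of Dll1 in the 90% library, 12 came from 5 barcodes. The 73 low-depth barcodes with at least 3 UMIs of a mural list carried 7 of the 21.

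Rbpj, the factor through which all receptors act, differed little. Its level was 18.8 CPM (11.7 to 28.8) against 12 CPM (9.15 to 15.4) in the 10% library and 28.1 CPM (24.1 to 32.4) against 18 CPM (16.5 to 19.6) in the 90% library. The ratio was 1.58 (0.91 to 2.62) and 1.56 (1.31 to 1.85). Rbpj values are uncertain, since the tables also count a processed copy, Rbpj-ps3, at 16 and 36 UMIs in the classes of the 10% library and at 90 and 197 UMIs in the 90% library. The copy was 2.03-fold and 2.12-fold higher in the low-depth class, a higher ratio than that of Rbpj, so the direction of Rbpj may depend on how reads were divided between the gene and the copy, which was not tested.

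Of the Hes and Hey genes, Heyl had the highest ratio. It had 140 low-depth UMIs in the 10% library, 126 CPM (106 to 148), and 60 deep UMIs, 11.8 CPM (8.98 to 15.1). The 90% library gave 159 CPM (150 to 170) from 1029 UMIs and 6.79 CPM (5.89 to 7.80) from 203 UMIs. The low-depth level was 10.7-fold (7.84 to 14.7) the deep level in the 10% library, 23.5-fold (20.2 to 27.4) in the 90% library and 29.4-fold (23.9 to 36.5) without the shared barcodes, so the direction was common and the size was not. Set against the 9 and 35 deep barcodes without cell cycle UMIs, the fold was 2.52 and 10.5, and after thinning as described below it was 4.34 and 16.9.

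Hes1, the broadly expressed member of the family, stood at 69.1 CPM (54.5 to 86.3) and 69.3 CPM (63.0 to 76.0) in the low-depth class. Its deep level was 37.5 CPM (32.3 to 43.2) and 34.8 CPM (32.7 to 37.0). The ratio was 1.84 (1.40 to 2.42) and 1.99 (1.78 to 2.23), and 2.12 (1.86 to 2.42) without the shared barcodes, and the class intervals did not overlap. Leaving out barcodes with at least 3 UMIs of a list of another cell type took the ratio in the 90% library to 1.53 and left it at 1.84 in the 10% library, and against deep barcodes without cell cycle UMIs it was 6.46 and 4.35. In the 90% library 73 low-depth barcodes with at least 3 UMIs of a mural list carried 121 of the 447 Hes1 UMIs, at 225 CPM against 55.1 CPM in the others. The immediate-early list given above stood higher in the same class, and its part in the Hes1 difference was not tested. Hey1 was near even in the 10% library, at 9.87 CPM (4.93 to 17.7) from 11 UMIs against 8.04 CPM (5.77 to 10.9) from 41 UMIs, a ratio of 1.23 (0.57 to 2.43). The 90% library had it at 21.1 CPM (17.7 to 24.9) against 6.26 CPM (5.39 to 7.22), a ratio of 3.37 (2.68 to 4.22), and of 2.03 against deep barcodes without cell cycle UMIs.

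Hes6 was the mirror image of Heyl. In the 10% library it had 5 UMIs in the low-depth class, 4.49 CPM (1.46 to 10.5), and 298 in the deep class, 58.4 CPM (52.0 to 65.5). By the 90% library it stood at 8.83 CPM (6.69 to 11.4) and 70.4 CPM (67.4 to 73.4). The deep level was 13-fold (5.52 to 40.4) and 7.96-fold (6.12 to 10.6) the low-depth level, and 7.39-fold (5.57 to 10) without the shared barcodes. In the 90% library the 73 low-depth barcodes with at least 3 UMIs of a mural list carried 23 of the 57 Hes6 UMIs. Their Hes6 level was 42.7 CPM, against 5.75 CPM in the other low-depth barcodes.

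**Figure D2:**
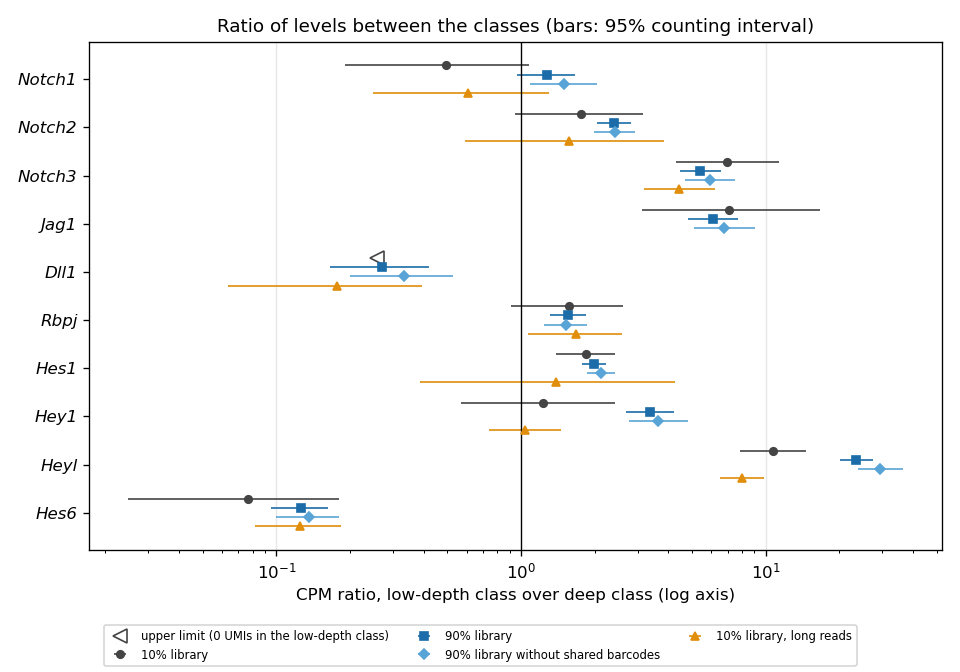
CPM ratio of the low-depth to the deep class for each gene on a log axis with 95% counting intervals, from short reads of the 10% library, the 90% library and the 90% library without shared barcodes, and from long reads of the 10% library. Notch3, Jag1 and Heyl lie right of 1 and Hes6 left of 1 in every measurement made, the open triangle is an upper limit for Dll1, and Jag1 has no long-read point because it had 0 long-read UMIs.

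These folds were read against the genes as a whole. In the 10% library, 16.4% of the 10076 genes with at least 20 UMIs were at least 2-fold higher in the low-depth class and 31.3% at least 2-fold higher in the deep class. For the 90% library the shares of 14932 genes were 19.5% and 30.0%, and without the shared barcodes those of 13829 genes were 19.1% and 30.3%. All 10 genes reached 20 UMIs. Of these, Notch1, Notch2, Jag1, Dll1, Hey1 and Hes6 did so in the 10% library only with the UMIs of the deep class. Jag1, with 17 low-depth and 11 deep UMIs there, needed those of both classes. In the 10% library 3 of 10 were at least 2-fold higher in the low-depth class (Notch3, Jag1 and Heyl) and 3 in the deep class (Notch1, Dll1 and Hes6). In the 90% library 5 were (Notch2, Notch3, Jag1, Hey1 and Heyl) and 2 were (Dll1 and Hes6). The median log2 ratio of the 10 genes was 0.74 and 1.13, beside -0.32 and -0.27 over all genes.

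The same barcodes gave nearly the same values when they were counted from either library. In the 144 low-depth and 76 deep barcodes common to both, the ratio of Heyl was 12 (8.69 to 16.7) by the 10% and 12.4 (8.89 to 17.4) by the 90% library. That of Notch3 was 6.09 (3.70 to 10.1) and 6.08 (3.51 to 10.6). Notch1 gave 0.55 (0.21 to 1.19) and 0.57 (0.20 to 1.33) in these barcodes, and 1.5 (1.09 to 2.05) in the barcodes of the 90% library not listed in the 10% library. The Notch1 ratios were thus alike between counts of the same barcodes and apart between sets of barcodes. The intervals of these sets overlapped, and the difference between them was not tested.

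A CPM is a share of the UMIs of a class, and deep barcodes held 9.09 and 9.50 times the UMIs of low-depth barcodes on average. Counted per barcode, most of the differences turned. Notch3 had a mean of 0.30 and 0.19 UMIs per low-depth barcode and 0.39 and 0.33 UMIs per deep barcode in the 10% and 90% library. Jag1 had 0.11 and 0.14 against 0.14 and 0.22, and Hes1 had 0.49 and 0.36 against 2.42 and 1.71. Heyl was the only one of the 10 genes with a higher mean per low-depth barcode in both libraries, at 0.89 against 0.76 and at 0.83 against 0.33 UMIs. The ratio was 1.17 (0.86 to 1.62) in the 10% library, which did not exclude 1, and 2.47 (2.12 to 2.89) in the 90% library. Hes6 had 0.03 and 0.05 UMIs per low-depth barcode and 3.77 and 3.47 per deep barcode.

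Shares of barcodes with a UMI depend on depth in the same manner, and were compared after each barcode had been thinned to 3000 UMIs, which left out none. Before thinning, Heyl had a UMI in 45.9% (37.9 to 54.0) and 42.7% (39.9 to 45.5) of low-depth barcodes and in 22.8% (14.1 to 33.6) and 14.9% (12.1 to 17.9) of deep barcodes. After thinning the shares were 30.6% and 31.1% against 10.1% and 2.15%. Hes6 had a UMI in 3.18% and 2.90% of low-depth barcodes and in 77.2% and 83.0% of deep barcodes, and after thinning in 1.91% and 2.25% against 22.8% and 19.3%. Both genes kept their order at equal depth.

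Notch3 showed why the thinned values were needed. Its unthinned share was 21.0% and 15.2% in the low-depth class and 27.8% and 22.8% in the deep class, the opposite order to the CPM. Thinned, it was 10.2% and 9.90% against 5.06% and 1.49%. Hes1 at equal depth was found in 14% and 12.4% of low-depth and in 8.86% and 10.1% of deep barcodes, with overlapping intervals in both libraries. The receptors were seen in few low-depth barcodes, where 29.3% in each library had a UMI of Notch1, Notch2 or Notch3 without thinning, while 58.6% and 53.3% had a UMI of Hes1, Hey1 or Heyl. At these depths a barcode without a UMI is no evidence of a cell without the transcript.

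**Figure D3:**
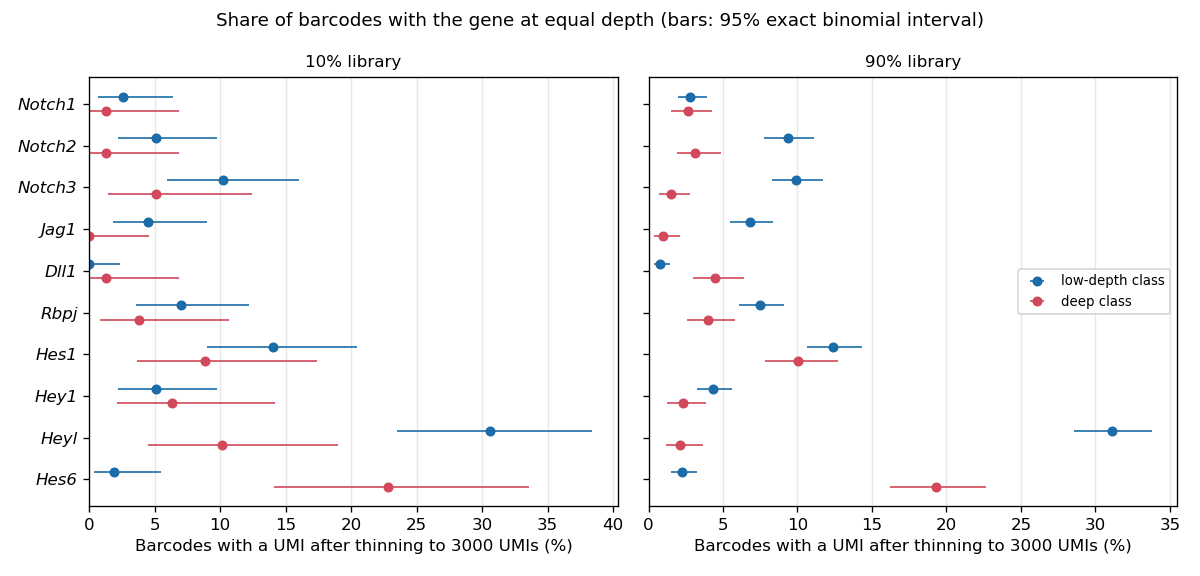
Share of barcodes with at least 1 UMI of each gene after every barcode was thinned to 3000 UMIs, in percent with 95% exact binomial intervals, for the low-depth (blue) and deep (red) class of each library. Heyl is the most frequent gene in the low-depth class, at 30.6% and 31.1%, and Hes6 in the deep class, at 22.8% and 19.3%.

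Free RNA was judged from other barcodes. In the 90% library 11 barcodes of at least 3000 UMIs held at least 3 UMIs over at least 3 of 9 immune genes and no Myod1, a choice made after the values were seen, with a median of 9424 UMIs. Heyl, Notch3, Hes1 and Hes6 had a UMI in 0 of these 11, which allows a share of up to 27.3%. Notch2 had one in 4 of the 11, and Rbpj in 3. Requiring no Myod1 can also leave out barcodes with free stem cell RNA, so these 11 cannot show that it was absent. With no limit on Myod1 or on the number of genes, 12 low-depth barcodes of the 90% library held at least 3 immune UMIs. They held 2 Heyl, 2 Notch3, 7 Hes1 and 0 Hes6 UMIs. Their levels were 21.7, 21.7, 76.1 and 0 CPM, against 161, 36.8, 69.2 and 8.96 CPM in the other low-depth barcodes. Barcodes of under 100 UMIs held too few UMIs to measure a background, 27853 in the 10% and 1201 in the 90% library.

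Within the low-depth class the members were split by Myod1, the transcription factor that marks the step from quiescence to activation. Heyl was at 127 CPM (98.0 to 161) without and 125 CPM (97.9 to 156) with a Myod1 UMI in the 10% library, and at 149 CPM (136 to 163) and 170 CPM (156 to 185) in the 90% library. The Heyl ratio with Myod1 to without it was 0.98 (0.70 to 1.39) and 1.14 (1.00 to 1.29), and Notch3 also differed little, being at 48.0 and 37.1 CPM in the 10% library and at 38.6 and 34.4 CPM in the 90% library. Hes1 was lower with Myod1, at 92.2 against 48.8 CPM, a ratio of 0.53 (0.32 to 0.86), and at 77.9 against 60.3 CPM, a ratio of 0.77 (0.64 to 0.94). Hey1 was lower with Myod1 in the 90% library, at 25.9 against 16.1 CPM with a ratio of 0.62 (0.43 to 0.89), and at 9.60 and 10.1 CPM in the 10% library.

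Barcodes outside both classes formed 2 further sets. Those of 3000 to 15000 UMIs with a cell cycle UMI numbered 21 and 148, and those of over 15000 and under 20000 UMIs numbered 12 and 42. By the 90% library Heyl stood at 159 CPM in the low-depth class, at 86.8 CPM (69.6 to 107) and 58.6 CPM (42.3 to 79.2) in these 2 sets, whose intervals overlapped, and at 5.99 CPM (5.07 to 7.02) in deep cycling barcodes. Hes6 went from 8.83 CPM to 41.4 CPM (29.8 to 56.0), 68.4 CPM (50.6 to 90.4) and 64.5 CPM (61.4 to 67.7), the last pair with overlapping intervals. Hes6 in the 10% library had 0 UMIs among the 156480 of the cycling barcodes of low depth, which leaves a level of up to 23.6 CPM, and 28.8 CPM (10.6 to 62.7) in the next set. Notch3 stood at 34.5 CPM (24 to 48) in the cycling barcodes of low depth, within the interval of the low-depth class, and at 6.54 CPM (5.58 to 7.61) in the deep cycling barcodes. Low depth was thus accompanied by a high Notch3 level with and without cell cycle transcripts in that library. In the 10% library the 21 cycling barcodes of low depth held 2 Notch3 UMIs, 12.8 CPM (1.55 to 46.2).

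Within the deep class, barcodes with at least 3 UMIs of Myog, which encodes the differentiation factor myogenin, were set against cycling barcodes with fewer. There were 8 with Myog in the 10% and 74 in the 90% library, taken with or without cell cycle UMIs. Of the 70 and 571 deep barcodes with a cell cycle UMI, 63 and 509 were in the cycling set. Most barcodes with Myog thus also held a cell cycle UMI. Hes6 in the 90% library stood at 110 CPM (99.8 to 122) in them and at 64.5 CPM in the cycling barcodes, a ratio of 1.71 (1.53 to 1.91). Dll1 stood at 28.0 CPM (22.8 to 33.9) and 9.65 CPM (8.48 to 10.9), a ratio of 2.90 (2.28 to 3.66). Rbpj stood at 28.8 CPM (23.6 to 34.8) and 16.5 CPM (14.9 to 18.1), a ratio of 1.75 (1.40 to 2.2). Dll1 and Hes6 thus had their highest level of the 7 sets of that library in the barcodes with Myog. Their ratios in the 10% library, 1.74 (0.70 to 3.78) for Dll1 and 1.35 (0.93 to 1.89) for Hes6, had the same direction and did not exclude 1. Dll1 was highest there, at 23.1 CPM (8.49 to 50.3), in the 8 deep barcodes with no cell cycle UMI and under 3 Myog UMIs. Notch2 was lower with Myog, at 10.1 CPM (7.08 to 13.9) against 15.1 CPM (13.6 to 16.7), a ratio of 0.67 (0.46 to 0.94).

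Deep barcodes with no cell cycle UMI and under 3 Myog UMIs were few, 8 and 23. Hes1 had its lowest level there in both libraries, at 11.6 CPM (2.38 to 33.8) from 3 UMIs and 13.6 CPM (6.81 to 24.4) from 11 UMIs, against 38.8 CPM (33.2 to 45.1) and 36.1 CPM (33.8 to 38.5) in deep cycling barcodes. Notch2 was at 34.7 CPM (15.9 to 65.9) and 32.3 CPM (21.1 to 47.3) there, above its 8.08 CPM (5.63 to 11.2) and 15.1 CPM in deep cycling barcodes.

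**Figure D4:**
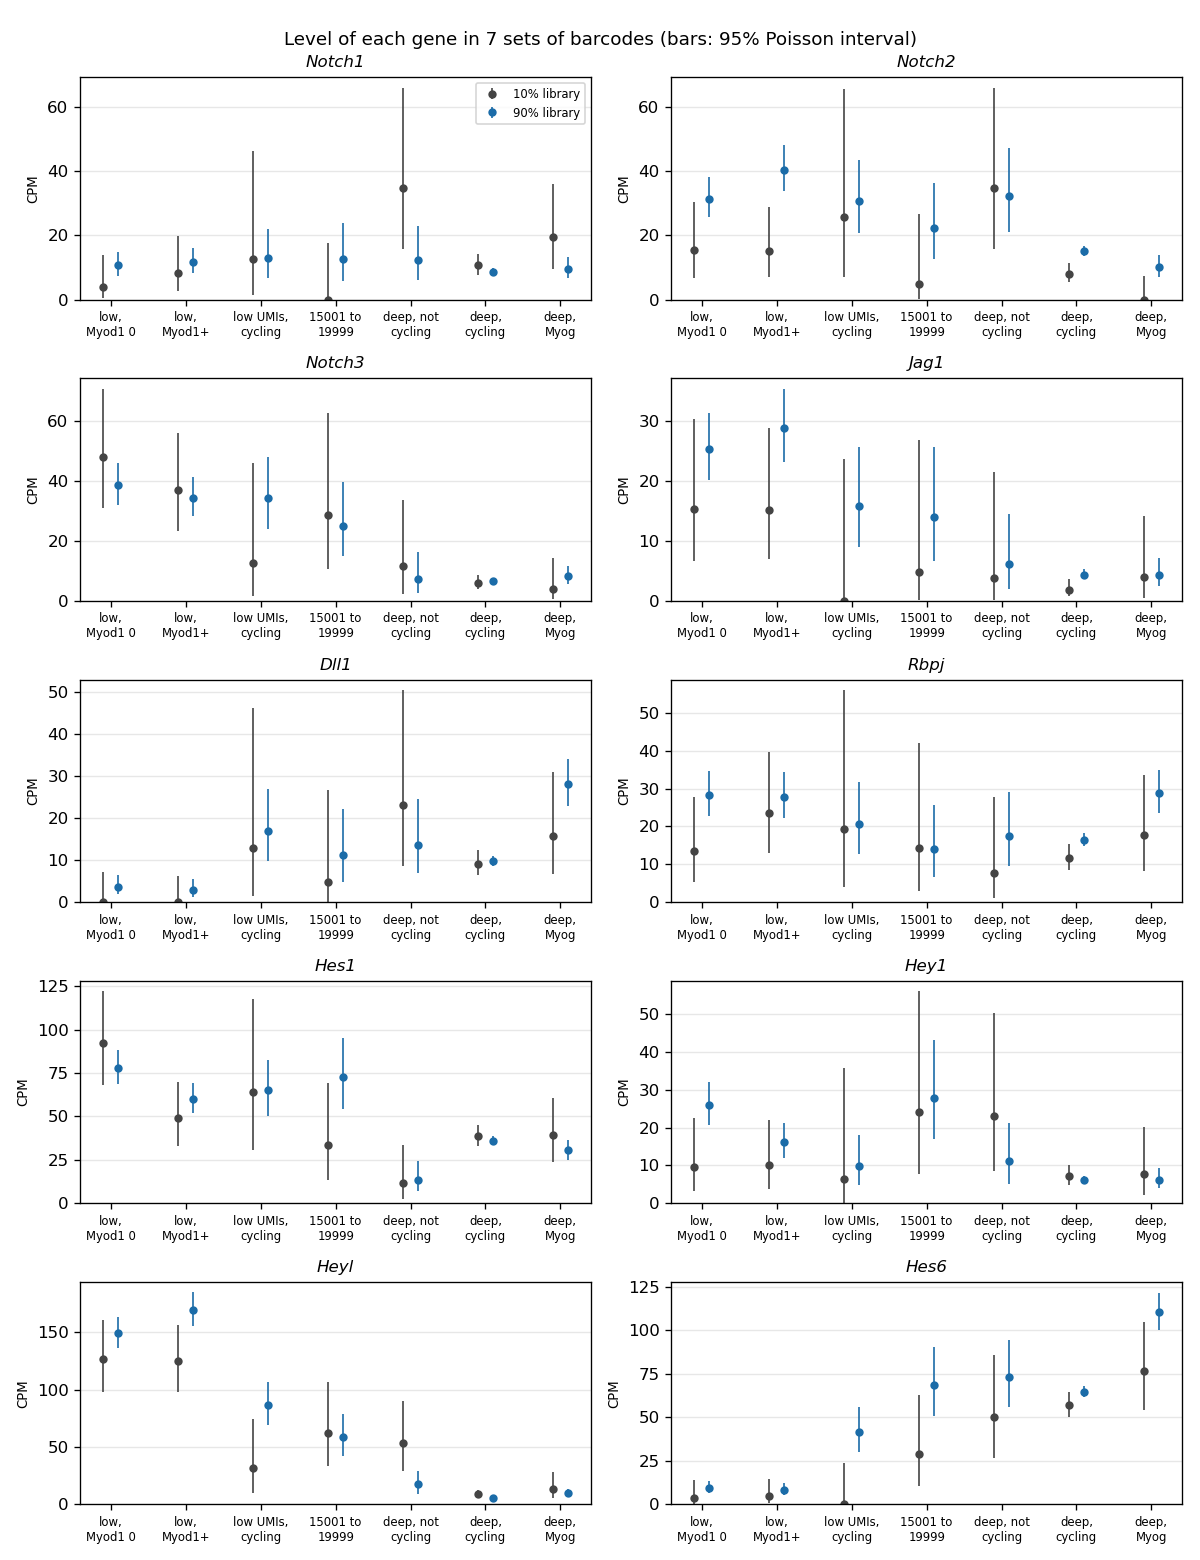
CPM of each gene with 95% Poisson intervals in 7 sets of barcodes of the 10% (grey) and 90% (blue) library. From left to right the sets are low depth without and with Myod1, 3000 to 15000 UMIs with a cell cycle UMI, over 15000 and under 20000 UMIs, and deep without cell cycle UMIs, with them, and with at least 3 Myog UMIs. The deep sets without and with cell cycle UMIs have under 3 Myog UMIs. The set with Myog was taken with or without cell cycle UMIs. In the 90% library Heyl is highest in the sets of low depth, at 149 and 170 CPM, and Hes6 and Dll1 are highest in the deep set with Myog, at 110 and 28.0 CPM.

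Notch3 and Heyl are also known from pericytes and smooth muscle cells around vessels, so markers of mural cells were counted beside them. The list had 6 genes. Pdgfrb, a pericyte receptor, stood at 4.49 and 2.48 CPM in the low-depth class against 0.39 and 0.13 CPM in the deep class, from 5 and 16 against 2 and 4 UMIs, and Kcnj8 and Abcc9 were also higher there, from at most 7 UMIs in a class. Myh11 had 0 UMIs in the 10% library and in the low-depth class of the 90% library. Rgs5 had 0 UMIs in the low-depth class of the 10% library and 31 UMIs in that of the 90% library. The summed list stood at 86.1 and 93.1 CPM in the low-depth class and at 78.4 and 47.9 CPM in the deep class, nearly all of it Acta2, a smooth muscle actin that myogenic cells can also express. In the deep class of the 10% library, 19 of 79 barcodes held at least 3 UMIs of the list and carried 48 of the 60 Heyl UMIs, a level of 51.2 CPM against 2.88 CPM in the other deep barcodes. In the deep class of the 90% library, 110 of 606 barcodes carried 93 of 203 Heyl UMIs, at 16.7 against 4.52 CPM. Low-depth Heyl was less tied to the list, with 207 against 113 CPM in the 10% and 176 against 158 CPM in the 90% library. Leaving out the 23 and 125 low-depth and 25 and 138 deep barcodes holding at least 3 UMIs of an immune, endothelial, mesenchymal, mural or glial list, the Heyl ratio was 36.5 and 35.9, larger than with them, and that of Notch3 was 8.25 and 5.72.

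The immune list summed to 348 and 321 CPM in the low-depth and to 109 and 7.10 CPM in the deep class, and at least 3 UMIs of it were held by 1 and 12 low-depth and by 4 and 18 deep barcodes. Those of the endothelial list were held by 1 and 5 and by 3 and 14, and those of the glial list by 1 and 2 low-depth and no deep barcodes. The mesenchymal list summed to 43.1 and 90.8 CPM in the low-depth class and to 34.9 and 7.77 CPM in the deep class, and at least 3 of its UMIs were held by 4 and 42 low-depth and by 4 and 7 deep barcodes. Its Dpt had a UMI in 15.9% and 16.3% of low-depth barcodes, at 32.3 and 49.1 CPM against 0.59 and 0.23 CPM in the deep class. Dcn and Col1a1 were higher in the low-depth class of the 90% library, at 24.3 against 1.61 CPM and at 16.9 against 5.69 CPM, and in the deep class of the 10% library, at 4.51 against 0.90 CPM and at 29.2 against 9.87 CPM. Pdgfra had 0 low-depth UMIs in both libraries. The part of these lists in the differences above was not tested beyond leaving out the barcodes with at least 3 UMIs of one.

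Other genes of the pathway were taken from a list of 65. In the 10% library 41 had at least 20 UMIs, of which 14 were at least 2-fold higher in the low-depth and 5 in the deep class. Of the list, 53 had in the 90% library, of which 21 and 8 were, and without the shared barcodes 22 and 6 of 50 were. Beside these stand the shares over all genes given above, 16.4% and 31.3% in the 10% library and 19.5% and 30.0% in the 90% library, and groups of this size near such shares show nothing about the group. By group, those of stem cell targets (collagens and other genes known to depend on Notch in satellite cells) were higher in the low-depth class in 6 of 6 in both libraries. The lists were chosen with earlier results of these data known, and this one shares Calcr and Pax7 with the quiescence list. The 6 of 6 is therefore a description and no evidence about Notch targets as a group. Of the nuclear complex 2 of 8 and 3 of 10 were higher there and none in the deep class. Among the target and corepressor genes 2 of 5 and 3 of 7 were higher in the low-depth class. Ubiquitin ligases and other genes of ligand and receptor turnover went both ways, with 3 of 11 and 5 of 13 higher in the low-depth and 3 and 2 higher in the deep class. Genes of glycosylation had none of 3 and of 4 higher in the low-depth class and 0 and 2 in the deep class, and genes of receptor processing had 1 of 7 and 3 of 10 higher in the low-depth and 2 and 2 in the deep class.

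The pathway genes that were at least 2-fold apart the same way in both libraries numbered 14 of the list of 65, and those named here are among the 12 with the most UMIs. The share of all genes that meet this rule is not given here, and the libraries share barcodes. The count of 14 therefore shows nothing about the list as a whole. Calcr, the calcitonin receptor of quiescent satellite cells, stood at 23.3 and 35.0 CPM in the low-depth class against 0.20 and 0.74 CPM in the deep class, from 26 and 1 UMIs in the 10% and 226 and 22 UMIs in the 90% library. Col5a3, a fibrillar collagen chain, was 6.96-fold and 8.75-fold higher in the low-depth class, Col6a1 was 2.50-fold and 8.97-fold higher, and Col5a1 was 2.75-fold and 4.09-fold higher. Pax7, which encodes the transcription factor of satellite cells, was 2.29-fold and 2.40-fold higher. Calcr and Pax7 are also on the quiescence list.

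Of the other named genes, Numb, which encodes an inhibitor of Notch receptors, was 5.03-fold and 3.58-fold higher in the low-depth class. The ubiquitin ligase genes Dtx3 and Dtx4 were 3.73-fold and 5.44-fold, and 3.43-fold and 4.12-fold higher there. Crebbp, which encodes a histone acetyltransferase, was 2.48-fold and 2.30-fold higher. Bhlhe40, a basic helix-loop-helix repressor gene, was 2.70-fold and 5.73-fold higher. Adam10, which encodes a protease that cuts ligand-bound receptors, was the only one of the 12 that was higher in the deep class, at 7.45 and 15.9 CPM against 3.59 and 7.90 CPM, from 4 low-depth UMIs in the 10% library, where the ratio of 0.48 (0.13 to 1.34) did not exclude 1. The other ligands were near absent in the low-depth class of the 10% library, where Jag2 had 1 UMI, Dlk1 had 3 and Dlk2 had 0. In the 90% library Dlk1 and Dlk2, which encode Delta-like proteins and are named here after their values were seen, were far apart in opposite directions, with 49 low-depth and 4 deep UMIs of Dlk1 (7.59 and 0.13 CPM) and 1 low-depth and 270 deep UMIs of Dlk2 (0.15 and 9.04 CPM).

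The genes whose pattern was most like those of 4 members were sought over the 5 sets with at least 10 barcodes in both libraries, 10 points in all, among 7442 genes. The points share barcodes, depth and libraries, so the correlations of log2(CPM + 10) are a description. Heyl was among the 5 genes closest to Notch3, with r = 0.96, as were Fxyd6, Dhx40 and Rsrp1, with r from 0.97 to 0.98. Those closest to Heyl were Crem, Eif2s3y, Tshz3, Airn and Litaf, with r of 0.98 to 0.99. Those closest to Hes6 were Gpi1, Elp6, Gemin2, Psmd6 and Ppib, with r from 0.98 to 0.99, and those closest to Hes1 were Rell1, Mxra8, Hdac5, Srfbp1 and Timp3, with r from 0.90 to 0.93.

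Nanopore long reads counted the same transcripts in the 10% library as isoforms, with 1382498 UMIs in the low-depth and 4628237 UMIs in the deep class. Heyl had 327 and 137 long-read UMIs, 237 against 29.6 CPM, a ratio of 7.99 (6.53 to 9.83). Notch3 had 86 and 65, 62.2 against 14 CPM, a ratio of 4.43 (3.17 to 6.21). Hes6 had 27 and 724, 19.5 against 156 CPM, and was 8.01-fold higher in the deep class, with a ratio of low-depth to deep of 0.12 (0.08 to 0.18). Dll1 had 6 and 114, 4.34 against 24.6 CPM. These 4 genes kept their direction in the long reads.

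The technologies did not see the genes alike. Over the 10076 genes with at least 20 short-read UMIs, the median was 1.66 long-read UMIs per short-read UMI, with quartiles of 0.81 and 2.42, and 17.8% had none. Hes1 had 17 long-read UMIs beside 268 short-read UMIs, 0.06 for each. Jag1 had no long-read UMI beside 28 short-read UMIs. Hey1 had the most for its short reads, 3.88 each, and its ratio of 1.04 (0.74 to 1.45) in the long reads lay within the interval of the short reads of this library.

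Isoforms could be compared between the classes for the 5 genes with at least 20 long-read UMIs in each. Hes6, on the minus strand at chr1:91411483-91414038 in GRCm38, was counted as 6 isoforms, all of which began at base 91413222, the first base after the promoter printed above. Isoform starts were corrected against the reference, as given above, so this shared start is not independent of the annotation. The spliced coding transcript Hes6 ENSMUST00000086851.1 took 22 of 27 UMIs in the low-depth and 516 of 724 in the deep class, 81.5% (61.9 to 93.7) and 71.3% (67.8 to 74.5). ENSMUST00000126136.7, which keeps the last intron, took 5 of 27 and 149 of 724, 18.5% (6.30 to 38.1) and 20.6% (17.7 to 23.7). The shares differed by -2.06 points (-12.9 to 16.3), which the low-depth count cannot resolve.

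The retained sequence is the last of 3 introns, lies within the coding sequence and is printed because it separates the 2 forms that make up most of the Hes6 UMIs. It spans 238 bases, and its splice site dinucleotides are in capitals.
Hes6 intron 3, chr1:91412483-91412720, minus strand: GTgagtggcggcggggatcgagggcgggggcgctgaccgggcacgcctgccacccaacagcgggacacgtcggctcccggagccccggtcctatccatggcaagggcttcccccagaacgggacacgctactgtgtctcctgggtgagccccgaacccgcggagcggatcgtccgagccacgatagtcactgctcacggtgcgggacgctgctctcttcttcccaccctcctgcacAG
Read from the annotated start codon, the intron-containing transcript of the reference has 169 codons before the first stop codon, which lies past the intron, and the spliced one has 224. Whether the longer transcript is translated was not measured. Of the UMIs of these 2 transcripts, 23.5% (20.0 to 27.2) kept the intron in deep cycling barcodes and 15.2% (8.10 to 25) in deep barcodes with Myog, with overlapping intervals.

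Notch3 (chr17:32120820-32166852, minus strand) was counted as 4 isoforms, none named after a reference transcript. The most frequent ran from coding exon 25 of 33 to the 3′ end of the gene and covered 44.9% of its span. It took 44 of 86 low-depth and 22 of 65 deep UMIs, 51.2% (40.1 to 62.1) and 33.8% (22.6 to 46.6), a difference of 17.3 points (1.36 to 31.9). The next ran from exon 30 to the same end, with 22.1% (13.9 to 32.3) and 33.8% (22.6 to 46.6). An isoform that covered the whole gene took 14% (7.42 to 23.1) and 16.9% (8.76 to 28.3), and began 8 bases downstream of the RefSeq start beside the promoter printed above. Across both classes 44 of 151 UMIs, 29.1%, were of isoforms that began within 100 bases of an annotated transcript start, against 100% for Heyl and Hes6 and 96.0% for Hey1. The correction of starts against the reference can raise such shares. The leading Notch3 forms are thus 3′ parts of the gene. The paper reports that full-length reads made up a smaller share for longer transcripts. Whether these forms, and the class difference in the first, come from truncated reads was not tested.

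Heyl (chr4:123233556-123249875, plus strand) was counted as 8 isoforms. The leading one reached the annotated end of the gene and took 46.2% (40.7 to 51.7) of low-depth and 48.9% (40.3 to 57.6) of deep UMIs. The next 2 shared an end 1156 bases before it, within the last exon and the 3′ UTR. They took 29.7% (24.8 to 34.9) against 38.7% (30.5 to 47.4), and 11.9% (8.62 to 15.9) against 4.38% (1.62 to 9.29). The latter difference was 7.55 points (1.81 to 12.2). A form that ended inside an intron, 7924 bases before the gene end, took 24 of 327 and 2 of 137 UMIs, 7.34% (4.76 to 10.7) and 1.46% (0.18 to 5.17), a difference of 5.88 points (1.49 to 9.39). The share of the major form of Heyl differed by -2.73 points (-12.6 to 7.12), which did not exclude 0, and 2 minor ones were in larger share in the low-depth class.

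Hey1 (chr3:8663359-8667256, minus strand) and Rbpj (chr5:53466152-53657362, plus strand) showed no difference beyond counting error in their leading isoform. Hey1 ENSMUST00000042412.4 took 56.3% (41.2 to 70.5) and 56.5% (48.3 to 64.5), a difference of -0.24 points (-16.1 to 15.0). The leading Rbpj isoform took 60.6% (42.1 to 77.1) and 57.6% (44.8 to 69.7), a difference of 3.03 points (-17.3 to 22.0). A minor isoform of each differed beyond counting error, at 5 of 48 low-depth and 4 of 154 deep UMIs for Hey1 (7.82 points, 0.77 to 19.7) and at 6 of 33 and 3 of 66 for Rbpj (13.6 points, 1.17 to 30.1). These differences, and those of Notch3 and Heyl above, were singled out from all isoforms of these genes with no allowance for their number. The intervals also treat UMIs of the same barcode as independent. For Dll1 (chr17:15367354-15376872, minus strand), which reached 20 UMIs in the deep class alone, ENSMUST00000014917.7 took 65 of 114 UMIs, 57.0% (47.4 to 66.3). Of the 44 deep UMIs of Notch1 (chr2:26457903-26516663, minus strand), 43 were of an isoform from exon 29 to 34 of 34, which covered 10.1% of the gene. The limit on truncated reads given for Notch3 holds for this form too.

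**Figure D5:**
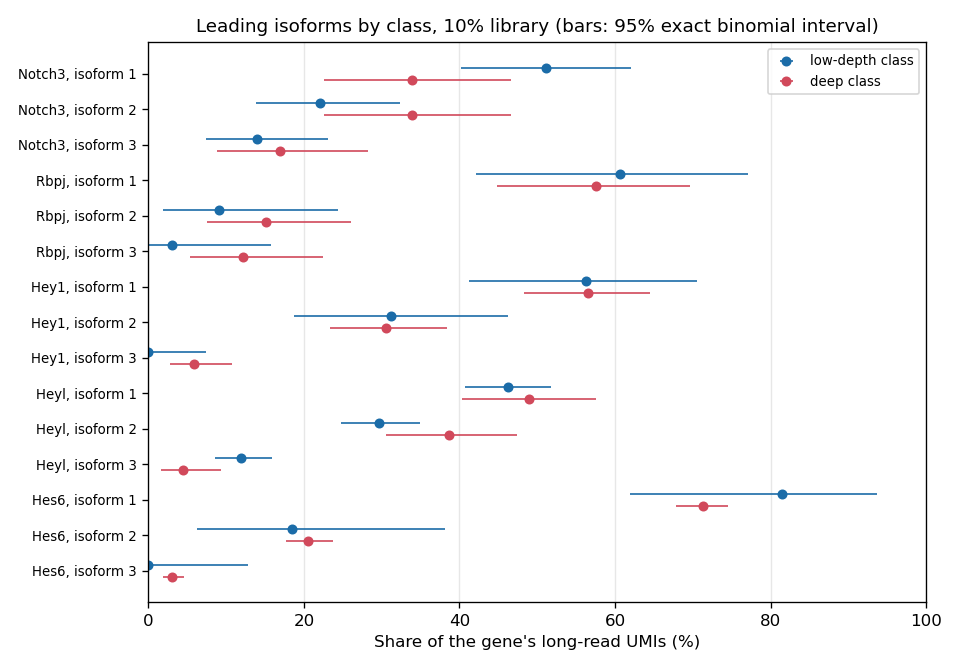
Share of the long-read UMIs of a gene taken by its 3 leading isoforms, numbered by UMIs, in the low-depth (blue) and deep (red) class of the 10% library, with 95% exact binomial intervals. The intervals of the classes overlap for each isoform shown, and the interval of the difference excludes 0 for Notch3 isoform 1 and Heyl isoform 3.

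Notch2 (chr3:98013527-98150361), Hes1 (chr16:30064384-30067796), both on the plus strand, and Jag1 (chr2:137081456-137116644, minus strand) had too few long-read UMIs for isoform shares in either class. Of the 10 genes, 5 overlap another annotated gene. The partners of Notch2, Gm42819 and Gm42820, lie on its own strand and had up to 41 UMIs in the deep class of the 90% library beside 446 of Notch2, and Gm42820 had 8 beside 44 in that of the 10% library, so Notch2 is uncertain to that extent. For Notch1, Notch3, Dll1 and Rbpj the partners on the opposite strand had at most 29 UMIs in a class, against 262 for Notch1 in that class, and whether the counting used strand is not given in the sources used here.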

How the data were processed

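Gene-level tables of raw UMI counts for both libraries were deposited by the authors, whose methods name scPipe. For the 10% library the authors also deposited isoform counts, from FLAMES on nanopore reads aligned with minimap2 to GRCm38 with Gencode vM24. The submitters' processing notes name Cell Ranger 1.3, minimap2 2.17 and GRCm38.p6. Symbols, positions and transcripts were taken here from Gencode vM21 of the same assembly. Per-sample replicates do not exist, so no test was run. All 1991 and 3001 barcodes were read. The study counts 242 and 611 cells, and keeping as many of the deepest barcodes leaves 135 and 0 low-depth and 79 and 606 deep barcodes, which is why no such filter was set.

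The genes, classes and lists were chosen with earlier results of these data known. UMIs were summed per class and divided by the class total. Intervals were exact Poisson for levels, exact conditional binomial for ratios, Clopper-Pearson for shares and Newcombe for differences of shares, at 95%. In folds, a class with 0 UMIs was set to 3 counts. Genes needed 20 UMIs over both classes, and isoform comparisons 20 in each class. Thinning drew 3000 UMIs per barcode without replacement. Pathway genes were named if they had at least 20 UMIs and were at least 2-fold apart the same way in both libraries, up to 12 by summed UMIs. Some genes that met a naming rule are not reported here. Similar genes needed 50 UMIs. Scrublet (scanpy 1.11.5) marked 0 of 330 and 3 of 2420 barcodes, too few for the caller to have worked, so doublets were not removed. Python 3.11.15 and scipy 1.17.1 were used, and the interval functions were tested on simulated data. Alternatives changed the scaling, class limits, barcodes left out, count minimum and fold limit.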

Additional observations from a re-analysis of the deposited data

Results flagged for a closer look

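Notch1 had opposite directions in the 2 libraries. The CPM ratio of the low-depth to the deep class was 0.49 (0.19 to 1.07) in the 10% library, from 7 and 65 UMIs, and 1.27 (0.97 to 1.66) in the 90% library, from 72 and 262 UMIs. Each library is 1 sample, so that the difference between them was not tested, and the libraries share barcodes.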

How the results depend on the processing

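No paired analysis was possible because each library is 1 sample and no result comes from a test. Of 268 ratios under the alternatives, 224 stayed within the counting interval of the reported ratio, 44 moved out of it and 0 of those whose interval excluded 1 changed direction, and all 54 isoform differences stayed within their interval. Keeping as many barcodes as the study counts as cells left 0 low-depth barcodes in the 90% library, so it gave no value there. Heyl in the 10% library ranged from 2.52 to 36.5 and in the 90% library from 10.5 to 35.9, with the lowest in each against the deep barcodes without cell cycle UMIs, which are few. Against the same barcodes Hey1 was 0.31 and Notch2 0.48 in the 10% library, below 1, and Notch1 was 2.01 after thinning, from 4 low-depth and 1 deep UMIs.

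The number of the 10 genes at least 2-fold higher in the low-depth class of the 10% library, 3 as reported, was 5 with the median ratio set to 1, 6 after thinning, 6 at a 1.5-fold limit and 1 among genes with at least 100 UMIs. Of the 10 genes, only Hes1, Heyl and Hes6 had at least 100 UMIs there. The 6 after thinning included Notch1, from 4 low-depth and 1 deep UMIs, and Notch2, from 10 and 1. The number higher in the deep class, also 3, was 1 after thinning, 5 without cell cycle UMIs and 1 with at least 100 UMIs. Of all genes, 1649 were higher in the low-depth class of the 10% library. This was 2231 with the median ratio set to 1, 1628 after thinning and 2436 at a 1.5-fold limit. It was 986 without cell cycle UMIs, 3448 with at least 1 UMI, 589 with at least 100 and 960 at a 3-fold limit. The 3153 higher in the deep class became 1983 after thinning, 938 without cell cycle UMIs, 1598 with at least 100 UMIs and 1845 at a 3-fold limit. In the 90% library 2909 higher in the low-depth class became 5185 with at least 1 UMI, 1689 with at least 100 and 1832 at a 3-fold limit, and 4479 higher in the deep class became 2488 without cell cycle UMIs and 2625 at a 3-fold limit. The cause of these changes was not tested beyond what the limits themselves set. Leaving out the shared barcodes, and splitting off Myod1, were chosen after seeing the data. With 7 to 21 UMIs in the low-depth class, Notch1, Notch2, Jag1, Rbpj and Hey1 in the 10% library are limited by counting.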
